A study of Mus musculus with 35 samples.

Results

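The genes described here build the nuclear pore complex and carry cargo through it: nucleoporins, importin alpha adaptors, receptors of the importin beta family, exportins and the GTPase Ran. They were chosen by symbol (Nup, Kpna, Kpnb, Xpo, Ipo and Tnpo followed by a digit, with Pom121, Tpr, Rae1, Aaas, Ndc1, Seh1l and Ran added by name). The rule uses no measured value, but it was chosen with earlier results of these data known. The rule found 48 of the 19085 genes in the table. They were read in 35 single mouse embryonic fibroblasts (MEFs, connective tissue cells grown from embryos) of strain C57Bl/6J. The 21 cells of one group held micronuclei, small bodies of chromatin with their own envelope outside the main nucleus, and the 14 cells of the other group held none. Every cell of both groups had received 1 Gy of ionising radiation 48 h before capture, had been moved to membrane dishes at 32 h and had been grown at 3% oxygen. No unirradiated cells were analysed here. DNA was stained with PicoGreen, single cells were cut out by laser, and polyadenylated RNA was amplified by the Smart-seq2 method, which reads whole transcripts without tagging single molecules. The labels name no culture, embryo or animal, so each group counts as 1 sample, no test was possible, and all values describe these cells.

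The nuclear pore complex is a channel of stacked rings through the nuclear envelope, with an outer ring on either face, an inner ring, a membrane ring, filaments toward the cytoplasm and a basket toward the nucleus. Proteins with phenylalanine-glycine repeats fill the channel and bind transport receptors. Importins release cargo inside the nucleus when they bind Ran in its GTP form, and exportins bind cargo together with that form. Pore proteins are of interest in micronuclei because the envelope of a micronucleus is known to hold few pores and to import poorly. The comparison addresses whether cells that carry micronuclei differ in the transcripts of this machinery. It was made on whole cells and cannot place any RNA or protein at a micronucleus.

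Reads on genes per cell were 57514 to 1794113 in micronucleated cells (median 281800) and 56766 to 2023111 in cells without micronuclei (median 736715). Genes with at least 1 read per cell had medians of 6812 and 6082, and the spike-in share of reads had medians of 0.860% and 2.25%. Of 14 listed fibroblast genes 13 were measured, with summed levels per cell of 4875 to 17103 CPM (reads per 1000000 reads on genes) in micronucleated cells and 6164 to 21365 CPM in the others. All 12 listed macrophage markers had reads somewhere, and 1 of them, Cd68, was measured. Their sum ran from 0 to 16369 CPM in micronucleated cells (median 0, with reads in 7 of 21) and from 0 to 64.1 CPM in the others (median 0, with reads in 3 of 14). It exceeded 100 CPM in micronucleated cells 4, 6, 10 and 18. Among the other cell type lists, 0 endothelial, epithelial, skeletal muscle or erythroid markers and 3 neural ones were measured. The S phase list had 20 genes lower and 5 higher in micronucleated cells among 25 measured (80.0% lower, median log2 ratio −0.61), and the G2M list had 14 higher and 8 lower among 22 (63.6% higher, median 0.10). Of all 8390 measured genes 56% were higher and 44% lower, with a median of 0.15. In 6 cells under 4500 genes were detected: micronucleated cells 6 and 21, and cells 1, 5, 7 and 8 without micronuclei. These 6 cells held 5.90% of the reads of the micronucleated group and 42.8% of the reads of the other group. Values without them are given beside the genes described cell by cell and for every measured gene of the set whose sign turned.

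Promoter sequence is shown for 3 genes that stand for the range of the results: Nup62 and Kpna2, which were higher in the summed reads of micronucleated cells, and Xpo1, which was lower. The windows run from 250 bases before to 50 bases after the RefSeq start of the gene (GRCm38.p6): chr7:44815838-44816137 on the plus strand for Nup62, chr11:106999476-106999775 on the minus strand for Kpna2 and chr11:23255791-23256090 on the plus strand for Xpo1. Capitals mark the motifs found on either strand: CCAAT, the NRF1 motif (GCGCA and GCGC with 1 base of any kind between them) and the cell cycle homology region (CHR) motif TTTGAA; a match on the other strand shows its reverse complement.
Nup62: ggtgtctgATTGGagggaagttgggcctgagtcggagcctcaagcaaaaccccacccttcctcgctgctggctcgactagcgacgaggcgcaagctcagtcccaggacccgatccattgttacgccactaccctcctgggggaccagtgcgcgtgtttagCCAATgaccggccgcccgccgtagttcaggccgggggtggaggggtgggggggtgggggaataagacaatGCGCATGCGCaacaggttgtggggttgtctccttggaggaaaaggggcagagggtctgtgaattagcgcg
Kpna2: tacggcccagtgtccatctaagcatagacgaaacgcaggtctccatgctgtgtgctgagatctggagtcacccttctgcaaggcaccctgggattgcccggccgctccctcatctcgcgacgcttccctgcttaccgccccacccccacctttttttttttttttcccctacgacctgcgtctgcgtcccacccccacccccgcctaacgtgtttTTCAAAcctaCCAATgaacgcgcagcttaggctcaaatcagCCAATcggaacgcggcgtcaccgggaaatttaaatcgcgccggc
Xpo1: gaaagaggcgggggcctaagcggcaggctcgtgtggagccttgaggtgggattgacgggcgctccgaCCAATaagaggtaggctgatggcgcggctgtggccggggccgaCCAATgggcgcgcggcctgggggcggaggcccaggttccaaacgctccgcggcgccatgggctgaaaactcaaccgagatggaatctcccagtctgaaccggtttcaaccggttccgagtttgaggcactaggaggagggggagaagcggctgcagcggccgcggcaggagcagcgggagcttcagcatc
Each of the 3 windows held CCAAT at 2 places. The Nup62 window also held 1 NRF1 motif, and the Kpna2 window held 1 CHR motif; no marked motif overlapped another.

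RefSeq windows were found for 38 of the 48 genes. CCAAT was in 52.6% of them, against 39.3% of the windows of all measured genes and 37.9% of all windows. The NRF1 motif was in 18.4%, against 12.3% and 4.78%. The ETS motif CCGGAAG was in 21.1%, against 21.1% and 9.12%, and the CHR motif in 23.7%, against 11.3% and 18.1%. The E2F motifs TTTCCCGC and TTTGGCGC were in 0 of the 38 windows, against 3.39% of the windows of measured genes and 1.63% of all windows. CCAAT stood in all 6 windows found for the genes at least 2-fold higher in micronucleated cells and in 4 of 7 found for those at least 2-fold lower. These are matches of letters in windows of one length, without a test, and the windows of the 48 genes had a median GC content of 64%, against 62% for measured genes and 52.7% for all.

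All 48 genes had reads, and together they took 0.361% of the reads of micronucleated cells and 0.381% of those of the other cells. A gene was called measured where all cells together reached 5 CPM and at least 5 cells held 5 reads or more. That held for 45 of the 48, and for 8390 genes in all. Ipo8, a receptor of the importin beta family, Nup210l, a relative of a membrane ring protein, and Nup62cl, a relative of the channel protein Nup62, were not measured. Their log2 ratios, 0.33, −1.08 and 0.70, are not counted below. Nup62cl had 168 reads, with at least 5 in 2 of 21 micronucleated cells and 1 of 14 others. Nup210 and Kpna7 under these symbols were not analysed here. Nup58 and Nup42 were listed under their older symbols Nupl1 and Nupl2, which the rule does not select. Both were measured, with log2 ratios of 0.11 and 0.26, and are counted only with the other transport genes below.

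Ran was the most abundant of the genes per length and supplied 23.5% of their reads. Levels per length are reads per kilobase of exon per 1000000 reads, from summed reads. On that scale Ran stood at 304 in micronucleated cells and 354 in the others. Kpna2, an importin alpha, was next at 72.3 and 24.3, followed by the mRNA export factor Rae1 at 53.8 and 26.7 and the main import receptor Kpnb1 at 34.7 and 42.8. The order of these 3 depends on the group: Kpnb1 was above Rae1 and Kpna2 in cells without micronuclei and below both in micronucleated cells. Next over all cells came the outer ring gene Nup85, at 38.4 in micronucleated cells and 4.55 in the others. At the low end of the measured genes were Xpo7 at 0.973 and 1.58, Xpo5 at 1.62 and 0.741, Nup133 at 0.770 and 1.42, and Xpo4 at 0.807 and 0.506. These steps are small beside the spread between cells, and each of these 4 genes had 0 CPM in some cells of either group. Genes of one ring could thus differ in transcript level, with Nup133 at about the level of these 3 exportins. Nup85, which also builds the outer ring, stood far above Nup133 in micronucleated cells (38.4 against 0.770). The gap was smaller in the other cells (4.55 against 1.42).

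**Figure D1:**
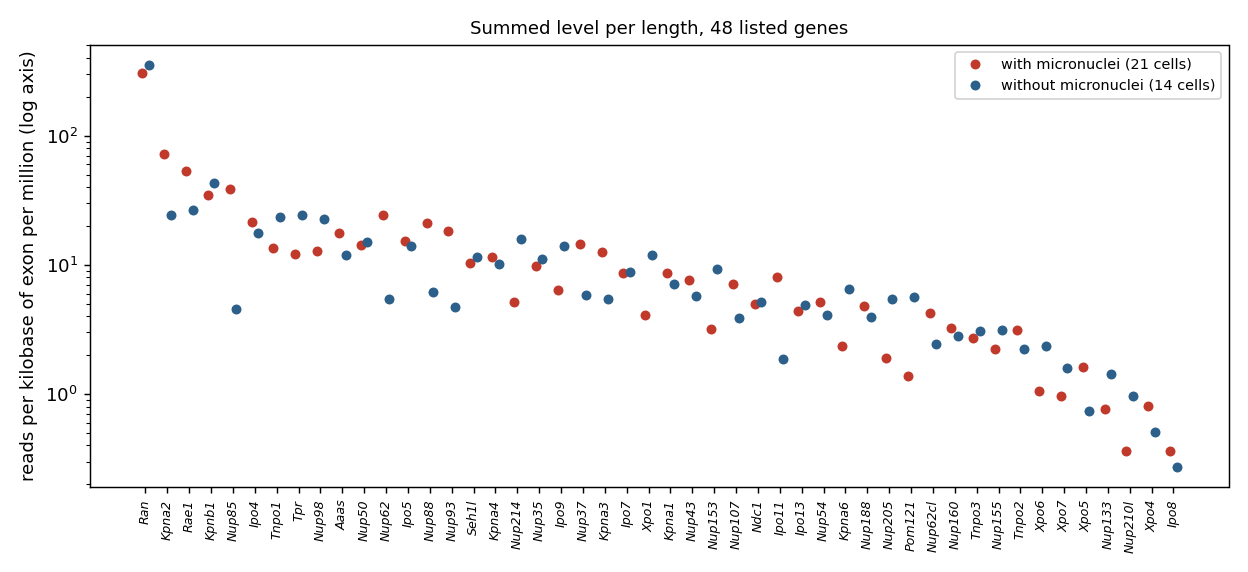
Summed level per length of the 48 genes (reads per kilobase of exon and 1000000 reads, log axis), ordered over all cells, for cells with micronuclei (left point of each pair) and cells without (right point). Ran stood at 304 and 354, and the unmeasured Ipo8 was lowest at 0.360 and 0.273.

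In summed reads the 45 measured genes fell on both sides of 0. The ratio used throughout is log2((CPM with micronuclei + 1)/(CPM without + 1)). It was above 0 for 22 genes (48.9%, against 56% of all measured genes) and below 0 for 23 (51.1%, against 44%). Its median was −0.02, against 0.15 over all measured genes; with equal weight for every cell the medians were −0.03 and 0.05, with 22 genes higher (48.9%, against 52.8%) and 23 lower (51.1%, against 47.2%). At least 2-fold higher in micronucleated cells were 8 genes (17.8%, against 22.9%): Nup85, Nup62, Ipo11, Nup93, Nup88, Kpna2, Nup37 and Kpna3. At least 2-fold lower were also 8 (17.8%, against 14.7%): Pom121, Nup214, Xpo1, Nup153, Nup205, Kpna6, Xpo6 and Ipo9. Just outside 2-fold stood Rae1 at 0.997, Xpo5 at 0.992 and Tpr at −0.996. The share of these genes past 2-fold was thus near, and for higher genes below, that of all measured genes.

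Fewer genes kept their size when single cells were left out. The sign held with equal weights and under every single omission for 11 higher genes (24.4%, against 33.5%) and 10 lower genes (22.2%, against 20.1%). Among them were all 8 genes at least 2-fold higher (17.8%, against 20.2%) and 7 of the 8 at least 2-fold lower (15.6%, against 10.8%), the exception being Ipo9. At least 2-fold higher whichever cell was left out were 6 (13.3%, against 11.7%), namely Nup85, Nup62, Ipo11, Nup93, Nup88 and Kpna2. At least 2-fold lower in the same sense was 1 (2.22%, against 3.56%), Kpna6. With equal weight required as well, Nup85, Nup62 and Ipo11 remained on the higher side (6.67%, against 8.87%) and Kpna6 on the lower (2.22%, against 2.85%). When reads were thinned to a common depth, all 16 genes past 2-fold in summed reads kept their sign, but only 4 stayed past 2-fold. These were Nup85 (2.43), Nup62 (1.78), Nup205 (−1.11) and Kpna6 (−1.03). The thinned ratio was 0.91 for Ipo11, 0.96 for Nup93, 0.77 for Kpna2, 0.64 for Nup88 and −0.48 for Pom121. With equal weight 5 genes were at least 2-fold higher (11.1%, against 15.7%) and 4 at least 2-fold lower (8.89%, against 10.5%). Without the 6 cells under 4500 genes, 5 of the 45 were at least 2-fold higher (11.1%, against 18.2%) and 4 at least 2-fold lower (8.89%, against 13.6%). The 5 higher ones were Nup85, Ipo11, Nup93, Kpna2 and Xpo5, and the 4 lower ones were Xpo1, Xpo6, Nup133 and Xpo7. Without these 6 cells the sign of 13 of the 45 turned. It became negative for Nup188 (−0.40), Nup160 (−0.40), Kpna1 (−0.33), Nup43 (−0.20), Aaas (−0.15) and Tnpo2 (−0.11). It became positive for Nup35 (0.73), Kpnb1 (0.71), Nup214 (0.43), Ipo7 (0.21), Nup50 (0.17), Ipo9 (0.10) and Ipo13 (0.06). In no measured gene did the 2 groups of cells separate: the ranges of CPM per cell overlapped for each of the 45.

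**Figure D2:**
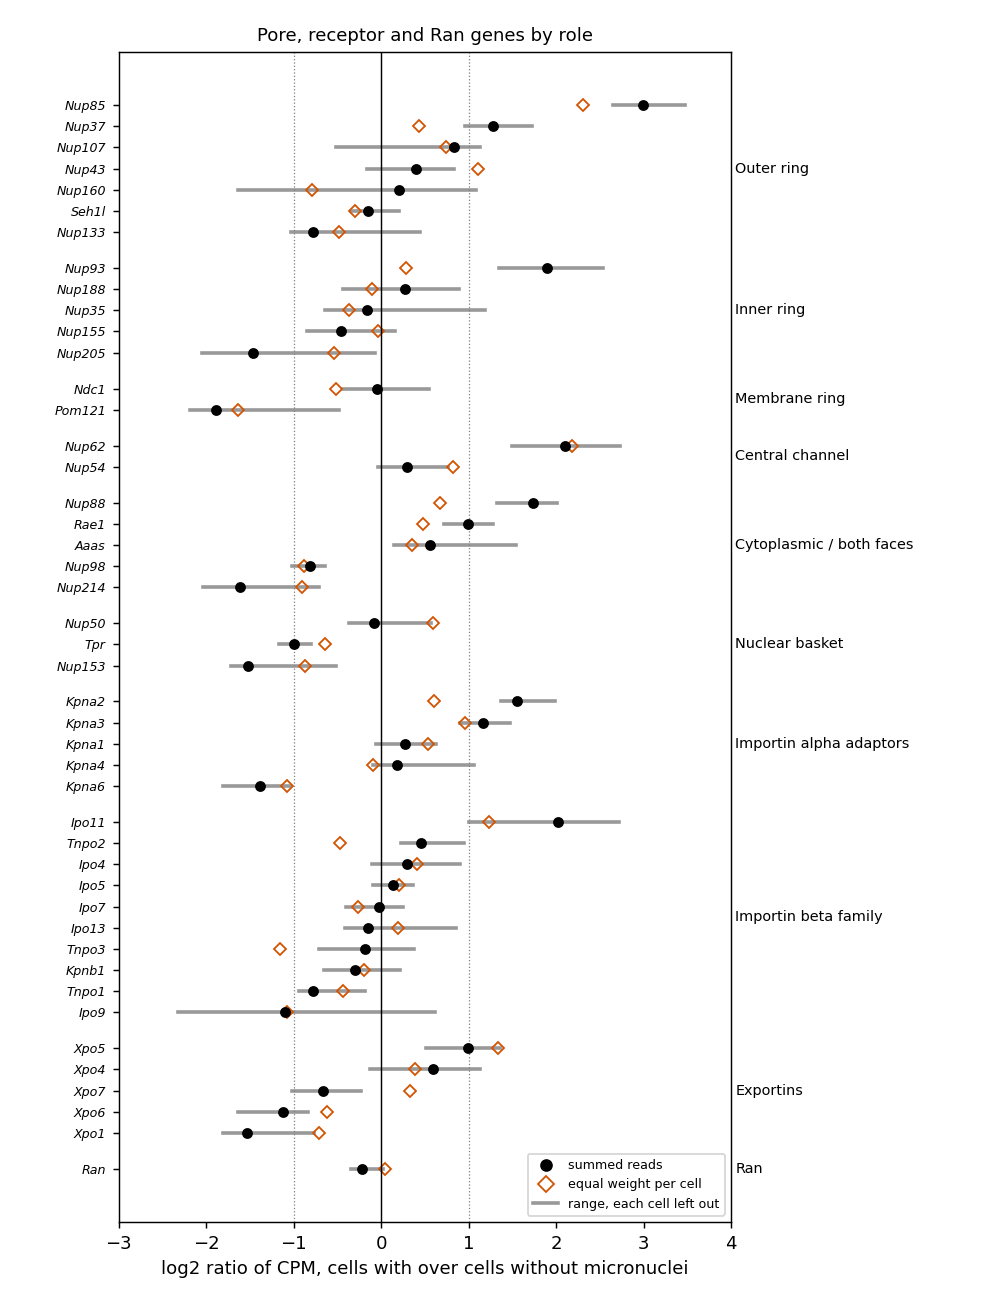
Log2 ratio of CPM, cells with over cells without micronuclei, for the 45 measured genes grouped by role. Filled points are summed reads, open diamonds give every cell equal weight, grey bars span the values with each cell left out in turn, and dotted lines mark 2-fold; Nup85 is the farthest right at 3.00 and Pom121 the farthest left at −1.89.

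The outer ring, or Y complex, shapes the scaffold on both faces of the pore. Each gene was counted under 1 role, and Nup98 (log2 ratio −0.82) was counted with the cytoplasmic face and both faces, not here. Of the 7 measured genes assigned to the outer ring, 5 were higher and 2 lower in micronucleated cells (71.4% higher, against 56% of all measured genes). Their median log2 ratio was 0.39. The pore genes Sec13 and Ahctf1, outside the rule and not counted here, were at 0.67 and −0.24. Nup85 (ENSMUSG00000020739, chr11:115564434-115583985, GRCm38, 18 exon blocks) encodes a subunit of the Y. It had 0 to 616 CPM per micronucleated cell (median 69.7) and 0 to 132 CPM per cell without micronuclei (median 7.71). The highest cells were micronucleated cell 21 and cell 3 without micronuclei; the ranges overlapped, with 5 micronucleated cells above every other cell. At least 5 reads were found in 13 of 21 (61.9%, exact 95% interval 38.4 to 81.9%) and 7 of 14 cells (50.0%, 23.0 to 77.0%). The intervals of shares treat cells as independent draws. The exact 95% Poisson intervals of levels treat reads as independent and leave out the spread between cells. Neither kind covers variation between samples. Summed reads gave 129.9 CPM (123 to 137) and 15.4 CPM (13.2 to 17.8), a log2 ratio of 3.00. The ratio was 2.31 with equal weight, 2.65 to 3.48 with each cell left out, and 2.02 without the 6 cells under 4500 genes. Thus the direction and a difference of at least 2-fold were present under each of these settings.

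Nup37, a peripheral subunit of the Y, had 0 to 131 CPM per micronucleated cell (median 26.0) and 0 to 74.6 CPM per cell without micronuclei (median 9.15). The ranges overlapped, and 4 micronucleated cells exceeded all others. Its log2 ratio was 1.28, but 0.96 without micronucleated cell 14, 0.43 with equal weight and 0.59 without the 6 cells under 4500 genes. The other members of the ring had smaller ratios: Nup107 0.84, Nup43 0.39, Nup160 0.20, Seh1l −0.14 and Nup133 −0.78. Each of these 5 changed sign when some single cell was left out.

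The inner ring anchors the channel to the scaffold, and its 5 genes went both ways (2 higher, 3 lower, median −0.16, but 0.31 by mean log2 CPM). Nup93 (ENSMUSG00000032939, chr8:94214564-94317227) links the inner ring to the channel proteins. Its level was 0 to 206 CPM per micronucleated cell (median 26.1) and 0 to 149.7 CPM per cell without micronuclei (median 14.3). Only 2 micronucleated cells exceeded the highest other cell, and micronucleated cell 13 alone held 33.85% of the gene's reads. The log2 ratio of 1.89 was 1.34 to 2.54 with each cell left out, the highest value being without cell 13, which has no micronuclei. With equal weight it was 0.28, so the size of the difference depended on the deep cells. Without the 6 cells under 4500 genes the ratio was 1.37. The large scaffold gene Nup205 went the other way, with 0 to 96.3 CPM per micronucleated cell (median 11.4) and 0 to 204 CPM per cell without micronuclei (median 5.37). With equal weight its ratio of −1.47 was −0.54 and without the 6 cells under 4500 genes −0.51. It was −0.07 without cell 7 of the group without micronuclei, which held 69.7% of that group's reads of Nup205, while the median per cell was higher in micronucleated cells. Nup188 was at 0.27, Nup35 at −0.16 and Nup155 at −0.46.

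The membrane ring anchors the pore in the envelope. Its 2 measured genes were both below 0 in summed reads, against 44% of all measured genes (median −0.97, and 0.26 by mean log2 CPM). Pom121 (ENSMUSG00000053293, chr5:135376141-135394546), a transmembrane protein of the pore, had 0 to 59.8 CPM per micronucleated cell (median 0) and 0 to 264 CPM per cell without micronuclei (median 0.983). The highest cells without micronuclei were few: 3 exceeded all micronucleated cells, and cell 8 held 68.8% of that group's reads. Its log2 ratio of −1.89 was −0.48 without that cell, −1.63 with equal weight and −0.96 without the 6 cells under 4500 genes. Exons of Nsun5 on the opposite strand cover 11.9% of its exon bases, and whether counting used strand is not given in the sources used here. The other gene, Ndc1, needed for pore assembly, was at −0.04, and 10 of 21 and 4 of 14 cells held at least 5 reads of it.

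Both measured genes of the central channel that the symbol rule selected were higher in summed reads of micronucleated cells, against 56% of all measured genes. Nup62 (ENSMUSG00000109511, chr7:44816088-44830812, 3 exon blocks), whose promoter window is shown above, encodes the core repeat protein of the channel. It had 0 to 662 CPM per micronucleated cell (median 34.6) and 0 to 131 CPM per cell without micronuclei (median 0). The highest values lay in micronucleated cell 21 and in cell 9 without micronuclei. Above every cell without micronuclei stood 6 micronucleated cells, while the ranges overlapped from 0 to 131 CPM. At least 5 reads were found in 13 of 21 (61.9%, 38.4 to 81.9%) and 4 of 14 cells (28.6%, 8.39 to 58.1%); at a common depth of 119337 reads it was 8 of 17 and 4 of 13. Summed reads gave 69.5 CPM (64.6 to 74.6) and 15.4 CPM (13.2 to 17.8), a log2 ratio of 2.10, and equal weight gave 2.18. Leaving out micronucleated cell 21 gave 1.498 and leaving out cell 9 without micronuclei gave 2.73; without the 6 cells under 4500 genes, cell 21 among them, it was 0.76. Nup54, its partner in the channel, was at 0.30 in summed reads and 0.83 with equal weight. With each cell left out Nup54 ran from −0.04 to 0.77, so its sign turned with 1 cell. The channel gene Nup58, listed as Nupl1 and outside the rule, was at 0.11 and at 1.08 with equal weight. Without the 6 cells under 4500 genes Nupl1 was at −0.58.

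**Figure D3:**
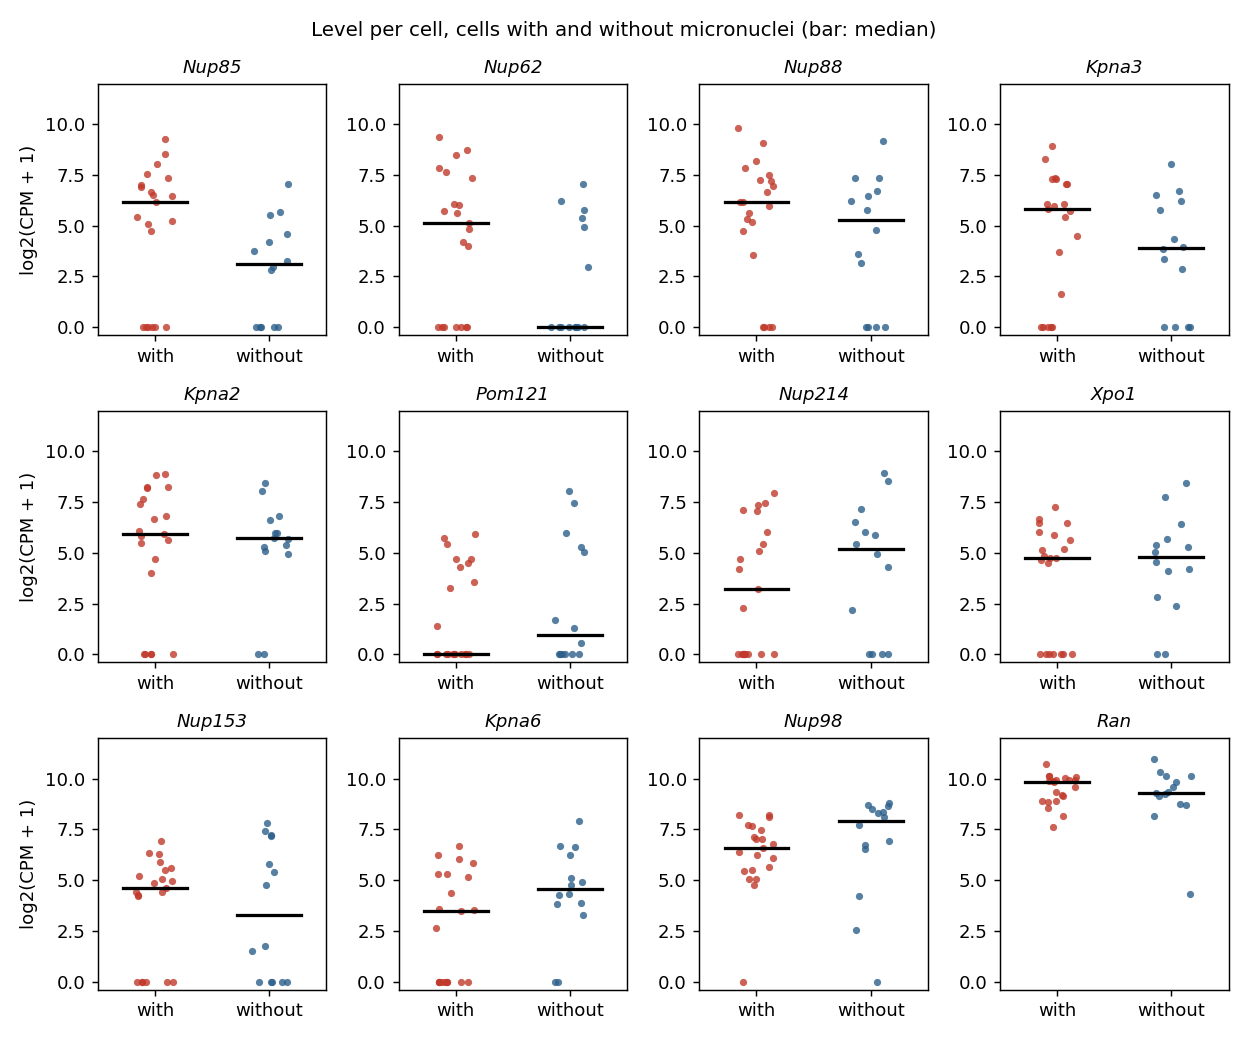
Level per cell, log2(CPM + 1), of 12 genes in cells with micronuclei (left in each panel) and without (right); points are cells and bars are medians. The groups overlap in every panel, and Nup98 shows 6 cells without micronuclei above all micronucleated cells.

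Proteins of the cytoplasmic face and of both faces, which release export cargo and bind mRNA, were split (3 higher, 2 lower, median 0.56). Nup88 (ENSMUSG00000040667, chr11:70943058-70969973) and Nup214 form one subcomplex on the cytoplasmic side and went opposite ways. Nup88 had 0 to 885 CPM per micronucleated cell (median 71.0) and 0 to 568 CPM per cell without micronuclei (median 39.5). Its log2 ratio was 1.74, between 1.32 and 2.01 with each cell left out, 0.67 with equal weight and 0.89 without the 6 cells under 4500 genes; 1 micronucleated cell, cell 6, exceeded the highest other cell. Nup214 (ENSMUSG00000001855, chr2:31974436-32053975) had 0 to 245 CPM per micronucleated cell (median 8.38) and 0 to 494 CPM per cell without micronuclei (median 36.5). The ratio of −1.61 was −0.71 without cell 7 of the group without micronuclei, −0.90 with equal weight and 0.43 without the 6 cells under 4500 genes, where its sign changed. For neither gene did the 2 groups of cells separate.

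Nup98, a repeat protein of both faces that also binds the export machinery, was one of the broadly detected genes. It had 0 to 299 CPM per micronucleated cell (median 94.98) and 0 to 443 CPM per cell without micronuclei (median 242). The higher values lay without micronuclei, where 6 of 14 cells exceeded every micronucleated cell, although the ranges overlapped. Summed reads gave 162 CPM (155 to 169.8) and 286 CPM (276 to 296), a log2 ratio of −0.82. It was −0.89 with equal weight, −1.02 to −0.64 with each cell left out and −0.48 without the 6 cells under 4500 genes. Rae1, which binds Nup98 in mRNA export, was at 1.00 and 0.47 with equal weight, and Aaas, anchored at the membrane ring by Ndc1, at 0.56 and 0.35.

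The nuclear basket holds the docking sites on the nuclear side, and its 3 genes were all below 0 (median −0.996), against 44% of all measured genes; the median was −0.64 with equal weight and 0.25 by mean log2 CPM. Nup153 (ENSMUSG00000021374, chr13:46679905-46727940) binds import receptors and is needed to assemble the basket. It had 0 to 122 CPM per micronucleated cell (median 23.5) and 0 to 225 CPM per cell without micronuclei (median 14.4). The medians and the sums pointed in opposite directions: 4 cells without micronuclei exceeded all micronucleated ones, but cell 7 alone held 59.6% of that group's reads. Its ratio of −1.52 was −0.51 without that cell, −0.87 with equal weight and −0.95 without the 6 cells under 4500 genes. Tpr (ENSMUSG00000006005, chr1:150392838-150449935, 49 exon blocks), the coiled-coil filament of the basket, had 0 to 452 CPM per micronucleated cell (median 142) and 7.07 to 513 CPM per cell without micronuclei (median 178). Tpr was thus found nearly everywhere, since 19 of 21 and 14 of 14 cells held at least 5 reads. Its ratio of −0.996 moved little when single cells were left out (−1.16 to −0.80). It was −0.64 with equal weight and −0.75 without the 6 cells under 4500 genes. Nup50, a mobile basket protein that helps take importin alpha apart from its cargo, was at −0.09 and at 0.60 with equal weight.

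Importin alpha adaptors bind nuclear localisation signals and link them to Kpnb1. Of 5 measured, 4 were higher and 1 lower in summed reads of micronucleated cells (80.0% higher, against 56% of all measured genes; median 0.28). Of the 4, Kpna1 and Kpna4 changed sign when some single cell was left out. Kpna2 (ENSMUSG00000018362, chr11:106988629-106999541), an adaptor known to be abundant in proliferating cells, had 0 to 469 CPM per micronucleated cell (median 60.4) and 0 to 342 CPM per cell without micronuclei (median 51.5). The medians were close, and 2 micronucleated cells exceeded the highest other cell. At least 5 reads were found in 12 of 21 (57.1%, 34.0 to 78.2%) and 11 of 14 cells (78.6%, 49.2 to 95.3%). Summed reads gave 208 CPM (199 to 216) and 69.8 CPM (65.1 to 74.8), a log2 ratio of 1.56, between 1.37 and 1.99 with each cell left out. With equal weight it was 0.61 and by the mean of log2 CPM per cell −0.11, so the 2-fold difference of the sums was not seen in the typical cell. Its reads are also uncertain because Gm10184 shares 99.9% of 1968 aligned bases with it; 4 reads were counted to that copy in all cells.

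Kpna3 (ENSMUSG00000021929, chr14:61365211-61439874) was the other adaptor past 2-fold. It had 0 to 487 CPM per micronucleated cell (median 55.0) and 0 to 267 CPM per cell without micronuclei (median 13.9), with a log2 ratio of 1.16 and 0.96 with equal weight. Leaving out cell 7 without micronuclei gave 0.90, and without the 6 cells under 4500 genes 0.80. Kpna6 (ENSMUSG00000003731, chr4:129643980-129672767) went the other way, with 0 to 103 CPM per micronucleated cell (median 9.96) and 0 to 239 CPM per cell without micronuclei (median 22.6). At least 5 reads of Kpna6 were found in 8 of 21 (38.1%, 18.1 to 61.6%) and 11 of 14 cells (78.6%, 49.2 to 95.3%), but at the common depth in 5 of 17 and 6 of 13. Its ratio was −1.39 and −1.08 with equal weight, from −1.80 to −1.04 with each cell left out and −0.91 without the 6 cells under 4500 genes. Kpna1 was at 0.28 and Kpna4 at 0.18.

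Receptors of the importin beta family carry cargo themselves or through an adaptor. Of 10 measured, 4 were higher and 6 lower (median −0.08). Kpnb1 (ENSMUSG00000001440, chr11:97159714-97187881), the partner of importin alpha, was read in every cell, with 34.4 to 609 CPM per micronucleated cell (median 192) and 60.2 to 686 CPM per cell without micronuclei (median 178). Its groups overlapped almost fully and its ratio was −0.30, and it changed sign, to 0.22, when cell 7 without micronuclei was left out and, to 0.71, without the 6 cells under 4500 genes. Ipo11 (ENSMUSG00000042590, chr13:106794439-106936958), a receptor known to import a ubiquitin-conjugating enzyme, had 0 to 279 CPM per micronucleated cell (median 8.68) and 0 to 93.3 CPM per cell without micronuclei (median 0). Micronucleated cell 7 held 57.7% of that group's reads of Ipo11, and 3 micronucleated cells exceeded every other cell. The ratio was 2.02, with 1.01 when that cell was left out, 2.72 when cell 6 without micronuclei was left out and 1.23 with equal weight. Without the 6 cells under 4500 genes it was 1.39.

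Ipo9 (ENSMUSG00000041879, chr1:135382312-135430499), an importer of histones, shows how far a single cell could carry a sum. It had 0 to 254 CPM per micronucleated cell (median 19.4) and 0 to 691 CPM per cell without micronuclei (median 32.3). Micronucleated cell 14 held 63.7% of its group's reads and cell 8 without micronuclei held 73.9%. The ratio of −1.10 became −2.32 when micronucleated cell 14 was left out and 0.62 when cell 8 was, and it was 0.10 without the 6 cells under 4500 genes. No direction can be given for it. The remaining receptors lay inside 2-fold: Tnpo2 at 0.46, Ipo4 at 0.29, Ipo5 at 0.14, Ipo7 at −0.02, Ipo13 at −0.15, Tnpo3 at −0.18 and Tnpo1 at −0.78. Tnpo1, transportin, which imports many RNA-binding proteins, was the one of these 7 that kept its sign with equal weight (−0.44) and with each cell left out (−0.94 to −0.19). Values of Ipo4 are uncertain, since 55.3% of its exon bases lie in a second annotated gene on the same strand.

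Exportins carry proteins and RNA out of the nucleus; 2 of 5 were higher and 3 lower (60.0% lower, against 44% of all measured genes). Their median was −0.67 in summed reads but 0.33 with equal weight and 0.01 by mean log2 CPM, so the group has no settled direction. Xpo1 (ENSMUSG00000020290, chr11:23256041-23298249), also called CRM1, exports proteins with leucine-rich signals; its promoter window is shown above. It had 0 to 152 CPM per micronucleated cell (median 26.0) and 0 to 343 CPM per cell without micronuclei (median 27.1). The medians were nearly equal, and 2 cells without micronuclei exceeded all micronucleated cells. Summed reads gave 29.2 CPM (26.1 to 32.6) and 86.3 CPM (81.0 to 91.8), a log2 ratio of −1.53. Without cell 8 of the group without micronuclei, which held 48.6% of that group's reads, it was −0.77, with equal weight −0.71, and without the 6 cells under 4500 genes −1.26. Xpo6, the exportin of actin with profilin, had 0 to 247 CPM per micronucleated cell (median 8.63) and 0 to 209 CPM per cell without micronuclei (median 26.9). Its highest cell was micronucleated although its ratio was −1.12. Without cell 6 of the group without micronuclei the ratio was −0.83, and with equal weight −0.62. Without the 6 cells under 4500 genes it was −1.45. Xpo5, which exports microRNA precursors, was at 0.99, Xpo4 at 0.59 and Xpo7 at −0.67, which was 0.33 with equal weight.

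Ran (ENSMUSG00000029430, chr5:129020069-129024323), whose nucleotide state sets the direction of transport, was read in all 35 cells. It had 195 to 1700 CPM per micronucleated cell (median 917) and 19.2 to 1985 CPM per cell without micronuclei (median 632). Both the lowest and the highest cell were without micronuclei, cells 5 and 8, and micronucleated cells lay between them. Summed reads gave 804 CPM (787 to 821) and 937 CPM (920 to 955), a log2 ratio of −0.22, against 0.04 with equal weight, and 0.02 without cell 8. A pseudogene, Gm13461, shares 97.3% of 662 aligned bases with Ran and had 178 reads. Ran was thus among the genes with the smallest difference, and its sign depended on the weighting.

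Pore proteins and receptors gave like counts, with 12 higher and 12 lower among 24 measured pore genes and 10 and 10 among 20 receptor genes. Their medians were 0.08 and 0.06, and −0.07 and 0.05 with equal weight. Reads were spread over the cells about as those of other genes were: a median of 23.7% of a gene's reads came from its highest cell, against 27.6% over all measured genes, and over 50% came from 1 cell for 3 of them (Pom121, Nup205 and Ipo9). A measured gene of the set had at least 5 reads in a median of 19 cells, against 16 cells over all measured genes. The 2 genes read in every cell were Ran and Kpnb1.

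**Figure D4:**
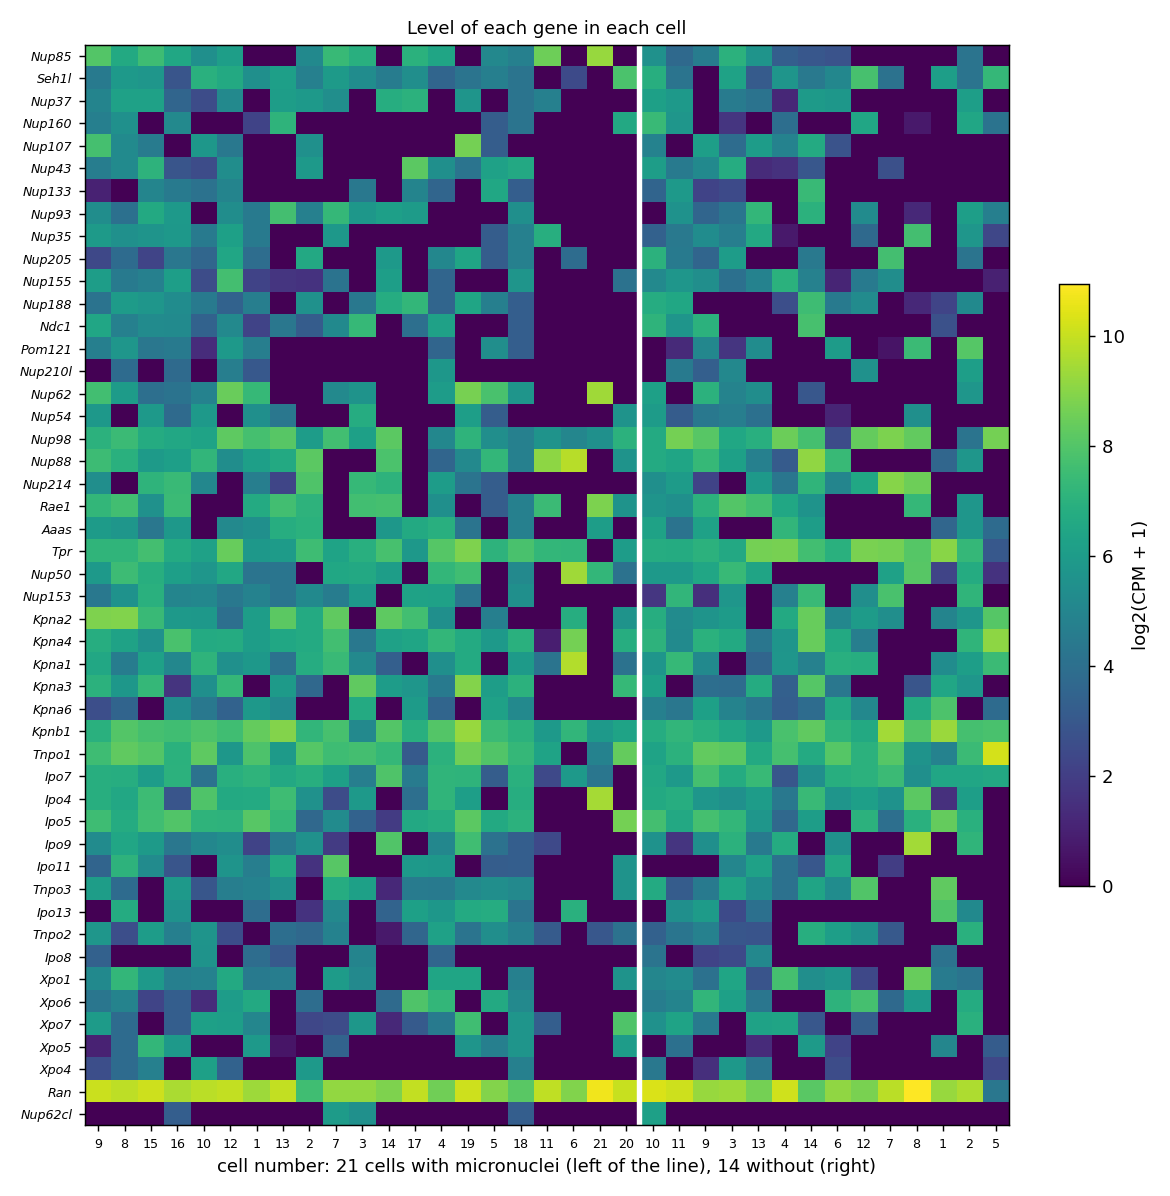
Level of the 48 genes, log2(CPM + 1), in each of the 21 cells with micronuclei (left of the white line) and the 14 without (right), with genes grouped by role and cells ordered within each group by how many of the genes they showed. Ran and Kpnb1 are filled throughout, and the dark cells at the right end of each group show how widely the other genes dropped to 0.

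The number of these genes per cell went with the breadth of the library. At least 5 reads were found for 10 to 42 of the 48 genes per micronucleated cell (median 25, SD 9.88) and for 15 to 41 per cell without micronuclei (median 25.5, SD 8.94). The difference of medians was far smaller than either SD. At the common depth of 119337 reads, which 17 and 13 cells reached, the medians were 20 and 18. Across the 35 cells the number of these genes and the number of genes detected had a Pearson r of 0.85 and a Spearman rho of 0.85, and 0.82 and 0.83 without the 2 farthest cells. Within groups r was 0.85 over 21 micronucleated cells and 0.92 over 14 others. Both counts come from the same libraries, so this describes shared detection and is no finding about transport.

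Summed over the 48 genes, the level per cell was 2396 to 5999 CPM in micronucleated cells (median 3382, SD 909) and 2455 to 5746 CPM in the others (median 3580, SD 831). The difference was again smaller than the spread. Without Ran the medians were 2743 and 2797 CPM. The sum went with the summed level of 28 S phase genes across cells (r 0.63 and rho 0.69 over 35 cells, 0.68 and 0.69 without the 2 farthest; r 0.71 over 21 micronucleated cells and 0.57 over 14 others), and with the G2M list with r 0.52 and rho 0.47 (0.59 and 0.44 without the 2 farthest). Kpna2 and the G2M list had an r of 0.57 over the 21 micronucleated cells, which was 0.02 without the 2 farthest, so that relation rests on those cells. These values share the total that CPM is scaled to. S phase genes also differed between the groups, as given above, and their part in the ratios was not tested.

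**Figure D5:**
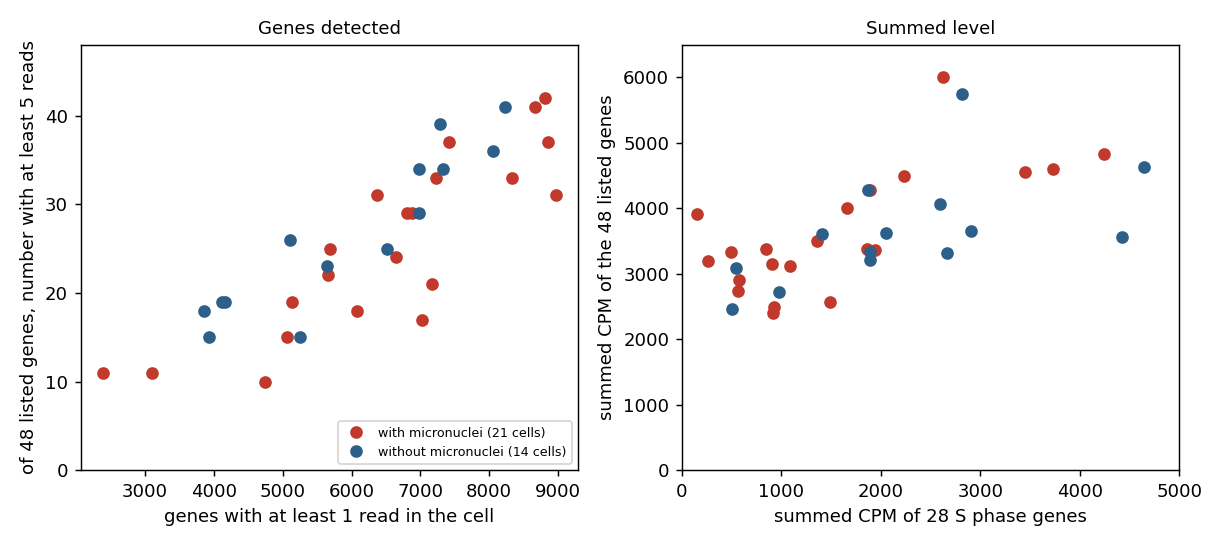
Left, number of the 48 genes with at least 5 reads against the number of genes detected in the cell; right, summed CPM of the 48 genes against summed CPM of 28 S phase genes. Points are cells with micronuclei and without; the groups overlap in both panels, and the medians of the left axis are 25 and 25.5.

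Other genes of nuclear transport were listed by function. Of 44 listed, 41 were in the table and 39 were measured, of which 23 were higher and 16 lower in micronucleated cells (59.0% higher, against 56%; median 0.10, against 0.15 over all measured genes). At least 2-fold higher were 3 (7.69%, against 22.9%) and at least 2-fold lower 2 (5.13%, against 14.7%). Xpot, the exportin of transfer RNA, stood at 39.8 and 10.9 CPM (log2 ratio 1.78, 1.58 with equal weight, 1.28 without the 6 cells under 4500 genes). Gle1, which activates the helicase that strips mRNA at the cytoplasmic face, stood at 38.0 and 13.9 CPM (1.39, and 1.91 with equal weight). Cell 11 without micronuclei held 75.8% of that group's reads of Gle1, and leaving it out gave 3.02; its lowest leave-out value was 0.86, and it was 0.72 without the 6 cells under 4500 genes. Pcid2, of the mRNA export complex at the basket, stood at 43.6 and 3.96 CPM (3.17), with 2.21 when micronucleated cell 11 was left out and 3.95 when cell 4 without micronuclei was. Alyref, the adaptor that loads mRNA for export, had 0 to 79.7 CPM per micronucleated cell (median 15.3) and 1.85 to 212 CPM per cell without micronuclei (median 61.6). Its ratio was −2.15, with −2.54 to −1.61 over the leave-outs, −1.79 with equal weight and −2.66 without the 6 cells under 4500 genes. Ncbp1, the large subunit of the nuclear cap-binding complex, stood at −2.06 but at −0.18 without cell 8 of the group without micronuclei, which held 77.1% of its group's reads, and at −2.83 without micronucleated cell 2.

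The parts of the Ran cycle and the pore genes outside the symbol rule moved less. Rcc1, the chromatin-bound factor that loads Ran with GTP, stood at 24.8 and 15.2 CPM (log2 ratio 0.68), with a lowest value of −0.23 when each cell was left out and −0.97 without the 6 cells under 4500 genes. Rangap1, which triggers GTP hydrolysis by Ran in the cytoplasm, stood at 68.4 and 112 CPM (−0.71, −0.84 to −0.33 with each cell left out, and −0.14 without the 6 cells under 4500 genes). Ranbp2, the large filament protein of the cytoplasmic face, stood at 66.0 and 39.9 CPM (0.71), but at −0.40 without the 6 cells under 4500 genes. Ahctf1 (ELYS), which starts pore assembly on chromatin, was at −0.24, and Cse1l, the exportin that returns importin alpha to the cytoplasm, at −0.16; both changed sign when some single cell was left out. The Ran cycle list had 4 of 6 measured genes higher and 2 lower (median 0.15), and the SUMO list, whose enzymes act at the pore, 5 of 8 higher and 3 lower (median 0.02).

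Without the 4 micronucleated cells with macrophage markers, all 16 of the genes past 2-fold stayed past 2-fold with the same sign. Nup85 was then at 3.10, Nup62 at 2.19, Kpna2 at 1.66, Pom121 at −1.81, Xpo1 at −1.52 and Kpna6 at −1.39. The sign turned for 4 of the 45 measured genes. The 4 cells left out held 92222 to 611652 reads each, of 11084425 in their group. Leaving them out could therefore move the summed ratios little, and the result is a weak check.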

How the data were processed

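Whole-number read counts per gene, not normalized, were deposited by the authors for 19085 genes and 62 spike-in RNAs in 35 cells. The submitters' processing notes name the aligner STAR and the build GRCm38.p5; no version or strand setting was given in the sources used here. Each group of cells was treated as 1 sample. Reads were summed per group without spike-ins, scaled to CPM (reads per 1000000), and compared as log2((CPM with micronuclei + 1)/(CPM without + 1)). Measured genes are those for which the cells together reached 5 CPM and 5 cells or more held at least 5 reads. The 95% intervals are exact Poisson for levels and Clopper-Pearson for shares of cells. Those of levels treat reads as independent, although reads of one molecule could not be told apart, and leave out the spread between cells. Those of shares treat cells as independent draws. Neither kind covers variation between samples. Of 595 pairs of cells, 0 were identical. The calculation of the ratio was checked on simulated Poisson counts with known folds, drawn without further variation between cells. That check cannot show how the ratio behaves with the spread between cells seen here.

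Positions, exon lengths and overlaps came from GENCODE M21 (GRCm38), matched by symbol for all 48 genes. BLAST 2.17.0 found near-identical copies (at least 95% over 300 bases) of 6 of them: Kpna2, Nup35, Nup54, Ran, Tnpo1 and Xpo4, whose counts are uncertain. Exons of 17 overlap another gene, of 13 on the opposite strand. Promoter windows came from RefSeq. Measured genes are named by role; values per cell are given for Ran, Kpna2, Kpnb1, Xpo1, Nup153, Nup98, Tpr and every measured gene at least 2-fold apart. Of the other transport genes, those of that size with the same sign at equal weight are named, with Ranbp2, Cse1l, Ahctf1, Rcc1 and Rangap1. The genes and lists were chosen with earlier results of these data known. Alternative settings were TMM (edgeR 4.0.16) and scran 1.30.0 factors, equal weights, mean log2 CPM, other added CPM, filters, read minimums and totals, thinning to 119337 reads, and leaving out each cell or the 6 cells that had fewer than 4000 genes or more than 9% of reads on mitochondrial transcripts. Leaving out the 4 cells with macrophage markers, or the 6 with under 4500 genes, was added after seeing the data. Software was R 4.3.3 and Python 3.11.15 with scipy 1.17.1, pandas 2.3.3, numpy 2.4.6 and matplotlib 3.10.9.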

Additional observations from a re-analysis of the deposited data

How the results depend on the processing

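The number of cells and the weight of a few deep cells limit these values, and 1 sample per group allows no p-value. No paired analysis was possible because no test was run and the cell numbers, given in accession order, pair no cells. With equal weight for every cell 5 genes were at least 2-fold higher (11.1%, against 15.7% of all measured genes) and 4 lower (8.89%, against 10.5%) in micronucleated cells. In summed reads these counts were 8 and 8. They were 5 and 3 by the difference of mean log2 CPM, and 3 of 42 measured and 4 when thinned to one depth. Without the 6 cells under 4500 genes they were 5 and 5 of 47 measured. For these last settings no share of all measured genes is set beside the counts. Of the 16 genes past 2-fold in summed reads, 6 stayed so with equal weight, 7 by mean log2 CPM, 4 after thinning and 6 without the cells under 4500 genes. The median log2 ratio, −0.02, was 0.25 by mean log2 CPM (0.30 over all measured genes), −0.16 with TMM factors (0.01), −0.16 after thinning (0.07) and 0.21 without the 6 cells of few genes or many mitochondrial reads (0.15). With each cell left out in turn, 19 to 28 genes were higher and 18 to 26 lower, 7 to 11 were at least 2-fold higher and 5 to 10 at least 2-fold lower, the median was −0.065 to 0.23, the difference in genes detected per cell −1 to 1.5 and in summed CPM −220.1 to −175. Among the 16 genes past 2-fold, signs turned for Ipo9 (0.62 at the end of its leave-out range of −2.32 to 0.62, and 0.10 without the cells under 4500 genes), for Nup214 (0.43 without those cells), and by mean log2 CPM for Nup205 (0.31), Nup153 (0.25) and Kpna2 (−0.11); beyond the cells named with their shares of reads, the cause was not tested. Of the 45 genes, the sign in summed reads was also found for 44 with TMM, 38 with scran factors, 38 after thinning, 37 with equal weight, 33 by mean log2 CPM and 32 without the cells under 4500 genes, and for all 45 with other added CPM, filters or totals.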
